A study of Mus musculus with 10 samples.

Results

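Biglycan is a small leucine-rich proteoglycan that can leave the extracellular matrix and act as a danger signal. In macrophages its soluble form is known to bind the Toll-like receptors TLR2 and TLR4 with the co-receptor CD14, to signal through the adaptors MyD88 and TRIF, and to engage the ATP-gated channels P2X4 and P2X7 so that the NLRP3 inflammasome matures interleukin-1 beta. The 9 genes of this sensing route, Tlr2, Tlr4, Cd14, Ly96, Myd88, Ticam1, P2rx4, P2rx7 and Nlrp3, were taken by symbol from a count table of 53167 genes and are called the sensing genes below. They were chosen for the known functions of their products, with earlier results of these data known. All 9 were listed, and 8 of them passed the filter on low counts that left 14415 genes for testing. Nlrp3 did not pass.

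RNA came from primary epithelial cells of the wild-type mouse mammary gland, grown in DMEM with serum. Biglycan protein at 100 ng/mL was added to the medium of 5 samples, called BGN. No biglycan was added to the other 5, called Control. The labels give neither the time of exposure nor the source of the protein. They also leave unsaid whether replicates are separate animals or cultures, and p-values then cover only the spread among these 10 samples, possibly a technical one.

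The libraries held between 18292624 and 21820560 counted reads, with overlapping totals in the groups (exact permutation p = 0.286, two-sided). Of the markers of the labelled cell type, all 7 epithelial ones (Epcam, Cdh1, Krt5, Krt14, Krt8, Krt18 and Trp63) were present. Their summed level was 8490 to 8854 CPM per library in BGN and 8449 to 9947 CPM in Control. Fibroblast and myeloid markers were also detected, at the far lower sums given below. These sums run over different genes and are not per gene length. CPM are read counts put on a common library total. The share of mitochondrially encoded reads was 2.14% to 2.26% in BGN. In Control libraries 1 to 5 it was 1.80%, 1.91%, 2.13%, 2.27% and 1.16%. Control replicate 5 was thus the lowest, and Control replicates 1, 2 and 3 also lay under all BGN libraries. The difference between the groups was not tested.

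The cultures held transcripts of the receptors and adaptors of biglycan sensing but almost none of the inflammasome sensor. Bulk RNA does not show which cells of the culture held them. Cd14 was among the most abundant transcripts of the culture, Tlr2, Tlr4, Myd88, Ticam1, P2rx4, P2rx7 and Ly96 were all measurable, and Nlrp3 had 4 reads in all 10 libraries together. Addition of biglycan was followed by no detectable change in any of the 8 tested sensing genes. By edgeR's quasi-likelihood test, 0 of the 8 passed an adjusted p of 0.05 in either direction, where 0% of all 14415 tested genes did. At an unadjusted p under 0.05 the count was 0 of 8, against 4.81% of all tested genes. DESeq2 and limma-voom also called 0 of them, adjusted or unadjusted. In 3 of 19 alternative settings, each with libraries left out, the unadjusted count was 1 of 8, and the gene was Tlr4. Of all genes there, 785 of 14545 had an unadjusted p under 0.05 without BGN replicate 5, and 872 of 14507 without Control replicate 2. Without BGN replicate 5 and Control replicate 5 together, 865 of 14449 did. The CPM of the groups overlapped for each of the 8, and failed to overlap in 0.728% of all tested genes. Of the 8 estimates, 5 lay above and 3 below 0, with a median log2 fold change (BGN over Control) of 0.0038, beside a median of -0.0040 over all tested genes.

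The stretch of DNA just before a gene's start is shown for a pair of members at opposite ends of expression, as a description of their promoters. RefSeq promoter entries (build GRCm38.p6) were matched by symbol for 6 of the 9 members: Tlr2, Myd88, Ticam1, P2rx4, P2rx7 and Nlrp3. Of the 6, Tlr2 had the highest level and Nlrp3 the lowest. The 250 bases before the start follow, 5′ to 3′ on the gene's strand, with each CG dinucleotide in capitals. The Tlr2 stretch lies at chr3:83841609-83841858 on the minus strand, and the Nlrp3 stretch, the upstream one of its 2 entries, at chr11:59541319-59541568 on the plus strand.
Tlr2: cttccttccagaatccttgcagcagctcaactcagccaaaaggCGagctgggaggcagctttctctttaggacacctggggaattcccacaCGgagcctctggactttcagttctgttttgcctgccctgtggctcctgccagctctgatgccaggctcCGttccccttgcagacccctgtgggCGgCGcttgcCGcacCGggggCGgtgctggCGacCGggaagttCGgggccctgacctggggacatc
Nlrp3: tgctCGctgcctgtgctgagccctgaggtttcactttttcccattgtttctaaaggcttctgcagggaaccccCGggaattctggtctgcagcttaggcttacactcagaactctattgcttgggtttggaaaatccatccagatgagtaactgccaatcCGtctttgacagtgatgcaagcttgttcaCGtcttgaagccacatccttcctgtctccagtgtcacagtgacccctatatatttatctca
Tlr2 had 11 CG dinucleotides in this window, and 35.6% of 32851 mouse promoter entries of the same length had at least as many. Nlrp3 had 4 there and 3 in its other entry, against a median of 6 over all entries. Myd88 and Ticam1 had 9 each, P2rx4 had 13, and P2rx7 had 6 and 4 in its 2 entries. A match to the NF-kB consensus, searched on both strands by its usual 10-letter form, was found in the Tlr2 window and in the printed Nlrp3 window. In Tlr2 this was a pair of overlapping matches, beginning 173 and 172 bases before the start, and in Nlrp3 it was 1 match beginning 186 bases before it. Such a match was found in 7.25% of all entries. These are letter counts in the reference sequence and say nothing of binding.

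Levels are comparable between genes only per length, so CPM were divided by the length of each gene's exons, joined over all its GENCODE M21 transcripts. Cd14 led the order with 233 ± 9.19 CPM per kb in BGN and 232 ± 15.5 CPM per kb in Control (SD, n = 5 each, as for all group values). Its mean over the 10 libraries exceeded that of 99.1% of tested genes. Tlr2 came next, at 34.7 ± 1.12 CPM per kb in BGN and 34.6 ± 0.911 in Control, above 90.1% of tested genes.

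Myd88 followed with 26.4 ± 0.264 CPM per kb in BGN and 25.6 ± 1.36 in Control, and Tlr4 was next at 12.4 ± 0.518 CPM per kb in BGN and 11.6 ± 0.699 in Control. P2rx4 was at 8.14 ± 0.596 CPM per kb in BGN and 8.44 ± 0.764 in Control. P2rx7 came next at 6.22 ± 0.478 CPM per kb in BGN and 6.07 ± 0.308 in Control. Ly96 was at 5.68 ± 0.597 CPM per kb in BGN and 6.25 ± 1.20 in Control. In both groups the P2rx7 mean lay within the spread (SD) of Ly96. Ticam1 was at 4.62 ± 0.169 CPM per kb in BGN and 4.77 ± 0.355 in Control, near the middle of all tested genes (43.7% were lower). The order depended in part on the gene model. With the longest protein-coding transcript as the length, a choice made after seeing the data, P2rx4 stood at 21.6 CPM per kb over the 10 libraries, above Tlr4 at 16.4, and Ly96 at 9.64 above P2rx7 at 7.43, while Cd14 (245), Tlr2 (34.6) and Myd88 (34.2) kept the first places and Ticam1 (4.69) and Nlrp3 (0.0054) the last ones.

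**Figure D1:**
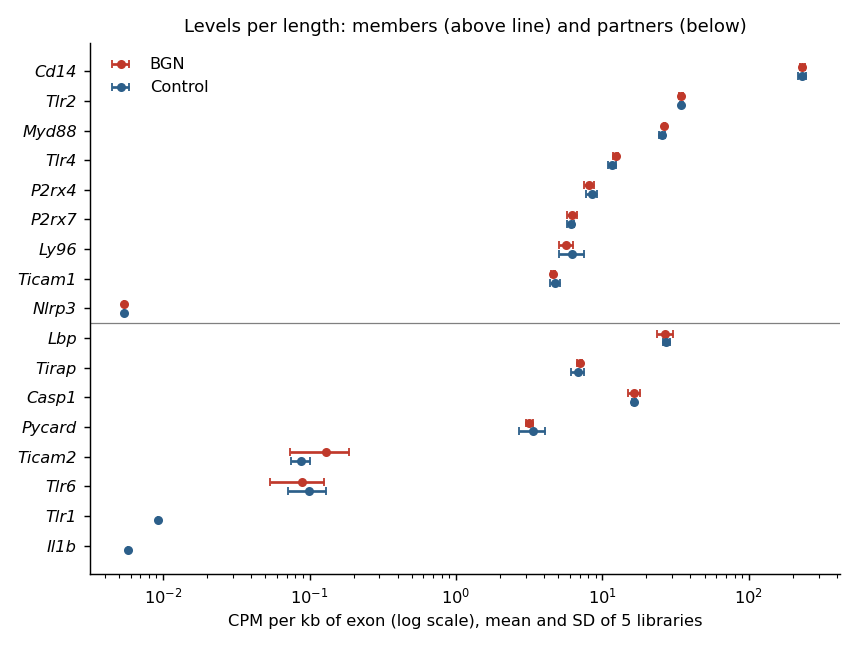
Level of each sensing gene (above the line) and of 8 partner genes (below it) in CPM per kb of exon on a log axis; points are group means of 5 BGN (red) and 5 Control (blue) libraries and bars the SD, left out for Nlrp3, Tlr1 and Il1b, which had 4 reads or fewer in all. Cd14 lies near 232 CPM per kb and Nlrp3 near 0.0054, and Tlr1 and Il1b have no BGN point because no read was counted there.

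Cd14 encodes a co-receptor, attached to the membrane by a lipid anchor, that hands ligands to TLR4 and TLR2. Its CPM in the BGN libraries 1 to 5 were 393, 409, 420, 412 and 380.0, and in the Control libraries 1 to 5 they were 407, 393, 380.3, 382 and 446. The groups overlapped, with the lowest value in BGN replicate 5 and the highest in Control replicate 5. The log2 fold change was 0.0043 ± 0.045 (SE), with a 95% interval of 0.940 to 1.07 for the fold change and an adjusted p of 0.995 by edgeR. Without Control replicate 5, the library with the lowest mitochondrial share, the log2 fold change was 0.045.

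Tlr2 encodes a receptor of the cell surface that pairs with TLR1 or TLR6. Its CPM were 104, 109, 99.9, 107 and 103 in BGN libraries 1 to 5, against 103, 106, 102, 108 and 101 in Control libraries 1 to 5. No library stood apart, and the SD was 3.22% of the mean in BGN, smaller than for any other tested sensing gene but Myd88, and 2.63% in Control, smaller than for any other. BGN over Control, Tlr2 had a log2 fold change of 0.0034 ± 0.040 (SE), with an interval of 0.946 to 1.06 for the fold change (adjusted p = 0.995, edgeR).

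The known partners of TLR2 were scarce. Tlr1 had 0 reads in BGN and 3 in Control, all 3 in Control replicate 4, so no fold change is given. Tlr6 had 33 reads in BGN, or 0.329 CPM by library totals (95% Poisson interval 0.226 to 0.461, for counting error only), and 36 in Control, or 0.374 CPM (0.262 to 0.518). Neither passed the filter, and per length Tlr6 reached 0.0894 CPM per kb in BGN and 0.0999 in Control, far under Tlr2. Other Toll-like receptors at a testable level were Tlr3, the sensor of double-stranded RNA, with 71.3 ± 4.76 CPM in BGN samples and 70.1 ± 6.55 CPM in Control, and Tlr5, the flagellin receptor, with 33.2 ± 0.380 CPM in BGN samples and 32.5 ± 2.49 CPM in Control.

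Tlr4 encodes the receptor best known for bacterial lipopolysaccharide. Its CPM were 71.1, 69.6, 69.5, 69.7 and 63.7 in BGN libraries 1 to 5, and 62.6, 70.4, 66.7, 61.0 and 62.2 in Control libraries 1 to 5. Of the BGN libraries, 4 lay close together with replicate 5 below them, and Control replicate 2 lay as high as those 4, so the groups overlapped. Its log2 fold change of 0.089 ± 0.049 (SE) had the smallest p among the sensing genes, yet it ranked 1243 of 14415 genes by p and its adjusted p was 0.945 by edgeR. The interval of the fold change ran from 0.991 to 1.14, and the log2 fold change from 0.068 to 0.12 when single libraries were left out. By edgeR its unadjusted p was 0.0298 (adjusted 0.883) without BGN replicate 5, 0.0230 (adjusted 0.811) without Control replicate 2, and 0.0467 (adjusted 0.828) without BGN replicate 5 and Control replicate 5 together.

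Ly96 encodes MD-2, the small secreted protein that sits on TLR4 and makes the ligand pocket. Its CPM were 5.35, 5.75, 5.08, 6.50 and 6.34 in BGN libraries 1 to 5, and 8.03, 6.40, 7.08, 5.12 and 5.27 in Control libraries 1 to 5. These rest on 98 to 147 reads a library, and Control replicates 1 and 3 alone lay above all BGN libraries. The log2 fold change was -0.13 ± 0.13 (SE), with an interval of 0.757 to 1.097 for the fold change (adjusted p = 0.972, edgeR). Without Control replicate 1 it was -0.040.

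Relative to Tlr4 and per exon length, Ly96 stood at 0.461 ± 0.0617 in BGN and 0.537 ± 0.102 in Control, and Cd14 at 18.8 ± 0.624 in BGN and 20.02 ± 2.06 in Control. These ratios of transcript levels depend on the gene model, as the order above does. Lbp, which encodes the secreted protein that passes lipopolysaccharide to CD14, was expressed at 130 ± 16.5 CPM in BGN samples and 132 ± 6.81 CPM in Control. Its log2 fold change was -0.026 (adjusted p = 0.988, edgeR). Of 14 genes of the wider receptor list, 4 were tested and 0 passed. Unadjusted, 1 of the 4 had a p under 0.05, beside 4.81% of all tested genes. It was Cd44, which encodes a hyaluronan receptor, with a log2 fold change of 0.11 and an adjusted p of 0.945 by edgeR.

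**Figure D2:**
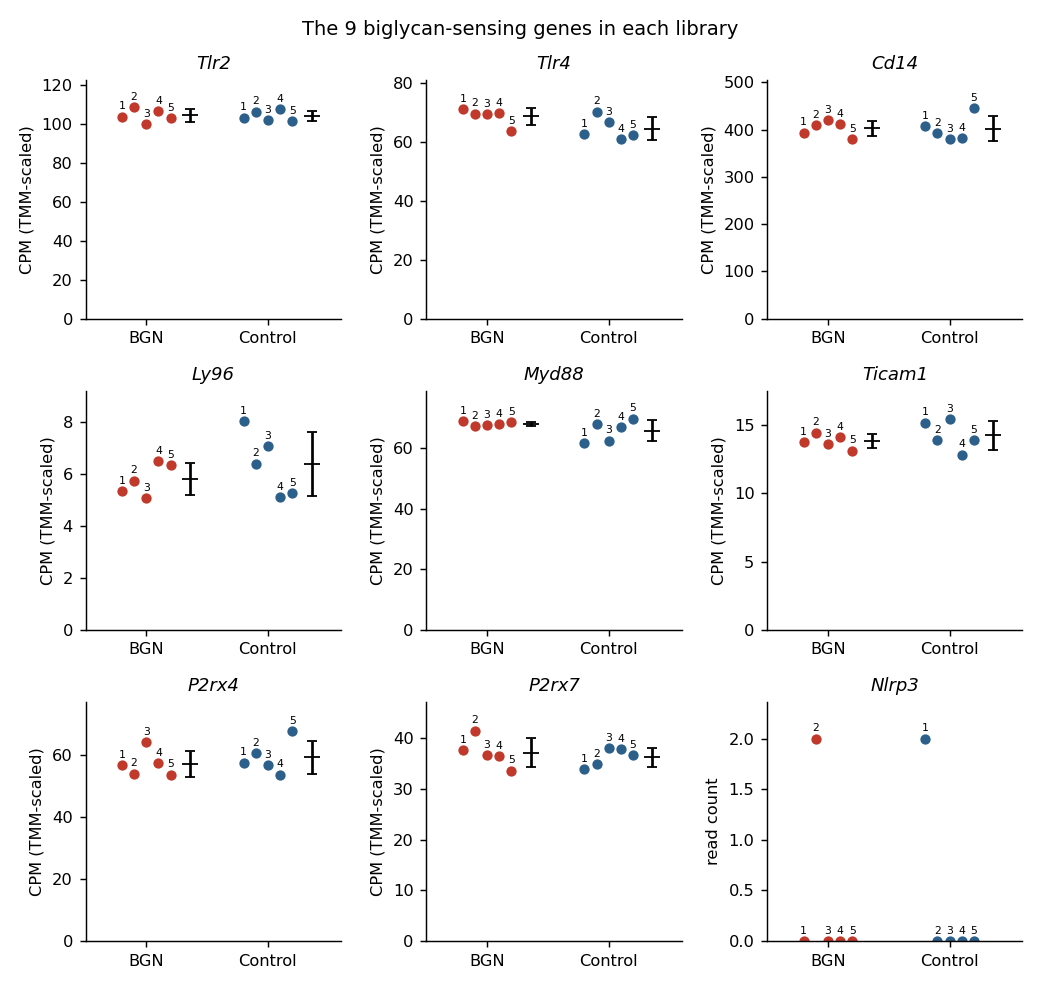
Values of the 9 sensing genes in each library, BGN in red left of Control in blue, with the replicate number beside each point; the y axis is TMM-scaled CPM, starting at 0, and for Nlrp3 the read count. Black bars give the mean and SD of 5 libraries (none for Nlrp3); the groups overlap in every panel, Tlr4 in BGN replicate 5 lies below the other BGN libraries at 63.7 CPM, and Nlrp3 has 2 reads in each of BGN replicate 2 and Control replicate 1.

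Myd88 encodes the adaptor shared by most Toll-like receptors and the interleukin-1 receptor. Its CPM were 68.9, 67.3, 67.6, 68.0 and 68.7 in BGN libraries 1 to 5, and 61.8, 68.1, 62.5, 67.1 and 69.8 in Control libraries 1 to 5. The BGN libraries lay within a narrow band inside the wider Control range. For Myd88 the log2 fold change was 0.048 ± 0.045 (SE), with an interval of 0.969 to 1.104 for the fold change (adjusted p = 0.972, edgeR), and the log2 fold change was 0.026 without Control replicate 1 and 0.070 without Control replicate 5 at the extremes. In the annotation 11.3% of the exon bases of Myd88 are shared with Acaa1a on the opposite strand, a gene with 1753 reads a library on average, and since the strand setting of the counting is not given, reads of that stretch cannot be told apart.

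Ticam1 encodes TRIF, the adaptor that links TLR3 and TLR4 to interferon regulatory factors. Its CPM were 13.7, 14.5, 13.6, 14.1 and 13.1 in BGN libraries 1 to 5, and 15.2, 13.9, 15.4, 12.8 and 13.9 in Control libraries 1 to 5. Control replicates 1 and 3 were the highest and Control replicate 4 the lowest of the 10. For Ticam1 the log2 fold change was -0.046 ± 0.076 (SE), with an interval of 0.868 to 1.08 for the fold change (adjusted p = 0.982, edgeR). Leaving out single libraries moved it between -0.082, without Control replicate 4, and -0.017, without Control replicate 3. Per length, Myd88 exceeded Ticam1 by a factor of 5.73 ± 0.252 in BGN and 5.40 ± 0.641 in Control.

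The bridging adaptors that carry TLR4 to either arm differed in level. Tirap, which brings MyD88 to TLR2 and TLR4, was at 7.01 ± 0.290 CPM per kb in BGN and 6.80 ± 0.645 in Control, and its log2 fold change was 0.044 (adjusted p = 0.978, edgeR). Ticam2, whose product TRAM brings TRIF to TLR4, was at only 0.130 ± 0.0563 CPM per kb in BGN and 0.0880 ± 0.0131 in Control. Its reads numbered 24, 11, 11, 20 and 9 in BGN libraries 1 to 5, against 10, 10, 8, 12 and 9 in Control libraries 1 to 5. BGN replicates 1 and 4 were high and the other BGN libraries lay among the Control ones. The log2 fold change of 0.55 had a 95% interval of -0.12 to 1.23 (adjusted p = 0.945, edgeR), and it was 0.32 without BGN replicate 1.

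Other genes of the arms were expressed and did not pass. All 14 listed genes of the MyD88 arm, from the IRAK kinases through TRAF6 and TAK1 to the IKK complex, were tested, and 0 passed in either direction; 6 estimates lay above and 8 below 0, with a median log2 fold change of -0.0041. Those of smallest p were Irak3, an inhibitor of the receptor complex, with 14.5 ± 1.86 CPM in BGN samples and 15.7 ± 1.16 CPM in Control (log2 fold change -0.12), and Tollip, also known as an inhibitor of this route, with 106 ± 2.79 CPM in BGN samples and 110 ± 5.02 CPM in Control (-0.056). All 8 genes of the TRIF arm were tested and 0 passed, 5 estimates above and 3 below 0 (median 0.017). Here Irf7, an interferon regulatory factor that is itself induced by interferon, was at 37.3 ± 5.52 CPM in BGN samples and 49.4 ± 13.3 CPM in Control (-0.41, interval -0.88 to 0.061, adjusted p = 0.945, edgeR).

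The chaperones that fold and move Toll-like receptors were mostly present. Of 5 listed, 4 were tested, 0 passed, and all 4 estimates lay below 0 (median -0.045). Hsp90b1, which encodes the chaperone gp96, was at 1278 ± 49.9 CPM in BGN samples and 1321 ± 69.0 CPM in Control (log2 fold change -0.048). Its co-chaperone gene Cnpy3 was at 26.8 ± 0.859 CPM in BGN samples and 29.2 ± 2.33 CPM in Control (-0.12, adjusted p = 0.945, edgeR).

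P2rx4 encodes an ATP-gated cation channel found on endosomes, lysosomes and the cell surface. Its CPM were 56.9, 54.0, 64.1, 57.4 and 53.7 in BGN libraries 1 to 5, and 57.6, 60.6, 56.8, 53.7 and 67.8 in Control libraries 1 to 5. The highest library was Control replicate 5, which also held the highest Cd14, and BGN replicate 3 came second. For P2rx4 the log2 fold change was -0.052 ± 0.061 (SE), with an interval of 0.884 to 1.05 for the fold change (adjusted p = 0.975, edgeR), and it was 0.00041 without Control replicate 5.

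P2rx7 encodes the ATP-gated channel whose opening lets potassium out of the cell, a known trigger of NLRP3 in macrophages. Its CPM were 37.6, 41.5, 36.7, 36.4 and 33.6 in BGN libraries 1 to 5, and 33.8, 34.9, 38.0, 37.9 and 36.7 in Control libraries 1 to 5. Both the highest and the lowest of the 10 were BGN libraries, replicates 2 and 5. For P2rx7 the log2 fold change was 0.035 ± 0.059 (SE), with an interval of 0.941 to 1.12 for the fold change (adjusted p = 0.982, edgeR). P2rx7 and P2rx4 lie close together on chromosome 5, with 1 gene model, Gm10064, between them in GENCODE M21, and their ratio per length was 1.32 ± 0.138 (P2rx4 over P2rx7) in BGN and 1.39 ± 0.152 in Control.

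Of 15 other genes of purinergic signalling, 8 were tested and 0 passed, with 5 estimates above and 3 below 0 (median log2 fold change 0.023). Unadjusted, 3 of the 8 had a p under 0.05, beside 4.81% of all tested genes. P2ry1, a receptor for ADP, was at 6.33 ± 0.423 CPM in BGN samples and 5.17 ± 0.403 CPM in Control (0.29, interval 0.069 to 0.52, adjusted p = 0.945 by edgeR). P2ry2, a receptor for ATP and UTP, was at 2.39 ± 0.399 CPM in BGN samples and 3.06 ± 0.448 CPM in Control (-0.36, interval -0.71 to -0.016, adjusted p = 0.945 by edgeR). The remaining gene of the 3 was P2rx3, a channel subunit gene known from sensory neurons, named here after its value was seen, with 154 reads in all (-0.54, adjusted p = 0.945 by edgeR). The groups overlapped for all 3.

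Nlrp3 encodes the sensor that assembles an inflammasome with the adaptor ASC and caspase-1. It had 2 reads in BGN, both in replicate 2, and 2 reads in Control, both in replicate 1, and 0 in the other libraries. By library totals this came to 0.0199 CPM in BGN (95% Poisson interval 0.00241 to 0.0719, for counting error only) and 0.0208 CPM in Control (0.00252 to 0.0751). Both groups lay under the level of 3 reads over a group, 0.0299 CPM in BGN and 0.0312 CPM in Control, so no fold change is given and a difference was not detectable at this depth.

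The rest of the inflammasome was present in part. Casp1, the gene of caspase-1, was at 24.8 ± 2.33 CPM in BGN samples and 24.6 ± 0.707 CPM in Control (log2 fold change 0.011), and Pycard, the gene of ASC, at 12.1 ± 0.638 CPM in BGN samples and 12.9 ± 2.56 CPM in Control (-0.088). Il1b, whose product caspase-1 cleaves, had 0 reads in BGN and 1 in Control, where 3 reads over the 10 libraries would be 0.0153 CPM. Il18, the other classical substrate, was tested at 0.632 ± 0.149 CPM in BGN samples and 0.590 ± 0.321 CPM in Control. Among the other sensors Nlrp10 was at 6.46 ± 3.25 CPM in BGN samples and 7.31 ± 2.73 CPM in Control (-0.19, interval -1.16 to 0.78). Of 17 listed inflammasome genes 9 were tested and 0 passed, 4 above and 5 below 0 (median -0.010).

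**Figure D3:**
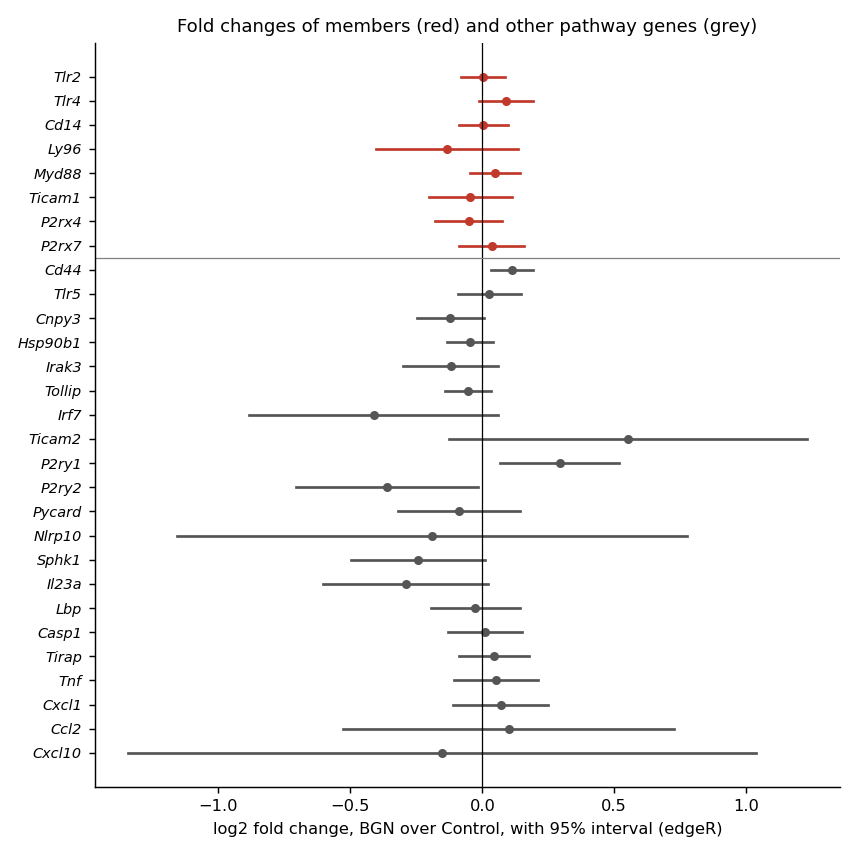
Log2 fold change (BGN over Control) with its 95% interval from edgeR for the 8 tested sensing genes (red, above the line) and the 21 other tested pathway genes that the naming rule picked (grey). All 8 red intervals span 0 and 7 of them lie within 1.25-fold in either direction, as for 10015 of all 14415 tested genes. The widest intervals among the 21 are those of Cxcl10, Nlrp10 and Ticam2.

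The intervals were narrow for most of the sensing genes. For 7 of the 8, all but Ly96, the 95% interval stayed inside 1.25-fold on both sides of 1. The same held for 10015 of all 14415 tested genes. The farthest bound of any of the 8 was 1.32-fold, for Ly96 toward lower values in BGN. These bounds concern transcript levels and not receptor protein or signalling.

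Known targets of TLR2 and TLR4 signalling did not pass either. Of 24 listed target genes 18 were tested and 0 passed by edgeR, with 13 estimates above and 5 below 0, a median log2 fold change of 0.037 beside -0.0040 over all tested genes, and 0 at an unadjusted p under 0.05. Tnf, an early inflammatory cytokine gene, was at 19.8 ± 2.29 CPM in BGN samples and 19.1 ± 0.818 CPM in Control (log2 fold change 0.052), and Cxcl1, a chemokine gene for neutrophils known as a MyD88 target, at 21.6 ± 2.69 CPM in BGN samples and 20.6 ± 2.29 CPM in Control (0.070, and 0.0011 without BGN replicate 2). The gene of the monocyte chemokine Ccl2 was low, at 0.913 ± 0.372 CPM in BGN samples and 0.843 ± 0.190 CPM in Control. The targets were bounded less tightly than the sensing genes. For 11 of the 18 tested targets the 95% interval stayed inside 1.25-fold on both sides of 1, against 7 of the 8 tested sensing genes. The farthest bound of any target was 2.53-fold, for Cxcl10 toward lower values in BGN.

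Ccl5, known as a TRIF-dependent target of biglycan in macrophages, had 33 reads in BGN and 45 in Control and was not tested. Il6 had 6 reads in BGN and 4 in Control. Cxcl10, an interferon-induced chemokine gene, spread widely within both groups, from 3.92 to 15.2 CPM in BGN samples and from 3.93 to 13.04 CPM in Control (log2 fold change -0.15, interval -1.34 to 1.04). The targets of smallest p were Sphk1, a sphingosine kinase gene, at 5.51 ± 0.773 CPM in BGN samples and 6.52 ± 0.866 CPM in Control (-0.25), and Il23a, a cytokine subunit gene, at 3.12 ± 0.418 CPM in BGN samples and 3.81 ± 0.611 CPM in Control (-0.29), both with an adjusted p of 0.945 by edgeR.

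Several of the sensing genes are known mainly from macrophages, so myeloid markers were read beside them. Of 13 myeloid markers 4 had no read in any library (Adgre1, C1qa, C1qb and Tyrobp), and Ptprc, the pan-leukocyte marker, had 2 reads in all. Cd163, Cd68 and Csf1r passed the filter, with 3405, 327 and 249 reads in all. The summed level of the 13 was 20.5 to 22.2 CPM per library in BGN and 18.3 to 22.5 CPM in Control (exact permutation p = 0.833, two-sided). Most of it came from Cd163, and without that gene the sum was 2.89 to 4.46 CPM in BGN samples and 3.09 to 4.82 CPM in Control. Per length, Cd163 had 624 reads per kb over the 10 libraries. Cd14 had 45571, Tlr2 6803, Myd88 5115 and Tlr4 2360. Much closer to Cd163 were P2rx4 (1628), P2rx7 (1205), Ly96 (1171) and Ticam1 (920), and Nlrp3 (0.986) lay below it. In bulk RNA, fewer cells of a type and less RNA per cell cannot be told apart, so the share of epithelial cells that express each receptor is not known from these values.

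Of the fibroblast markers, Pdgfra, a growth factor receptor gene, was well detected, at 39.5 ± 2.27 CPM in BGN samples and 38.0 ± 6.79 CPM in Control. All 8 fibroblast markers together gave 46.3 to 52.2 CPM per library in BGN and 40.2 to 59.3 CPM in Control, mostly Pdgfra, with Dpt at 0 and the collagen gene Col1a1 at 4.64 CPM in BGN samples and 4.20 CPM in Control. Per length, Pdgfra stood at 3.87 CPM per kb over the 10 libraries. The tested sensing genes ran from 4.69 for Ticam1 and 5.97 for Ly96 up to 232 for Cd14. The part of fibroblasts in the levels of the sensing genes was not tested. The 5 endothelial markers summed to 4.43 to 5.72 CPM in BGN samples and 5.35 to 6.07 CPM in Control, and 5 of the 6 lymphocyte markers had no read.

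**Figure D4:**
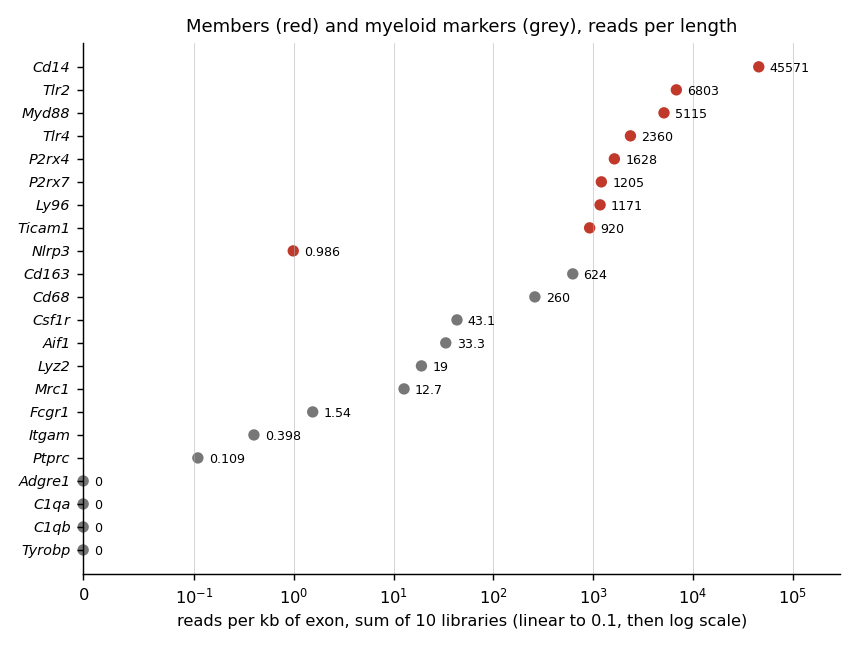
Reads per kb of exon, summed over the 10 libraries, for the 9 sensing genes (red) and 13 myeloid markers (grey) on an axis that is linear to 0.1 and logarithmic above. Cd14 lies at 45571 reads per kb, the other tested sensing genes between 920 (Ticam1) and 6803 (Tlr2), and Nlrp3 at 0.986. The highest myeloid markers are Cd163 at 624, Cd68 at 260 and Csf1r at 43.1, whereas Adgre1, C1qa, C1qb and Tyrobp lie at 0.

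The genes whose levels followed those of the leading receptors most closely over the 10 libraries were picked by the highest Pearson r of log2 CPM among 11964 genes with a mean of at least 50 reads. For Cd14 these were Ncald (r = 0.950) and Jade2 (0.948), for Tlr4 they were Cyria (0.931) and Gm14325 (0.924), and for Tlr2 they were Ccnyl1 (0.894) and Atg4a (0.875). These are descriptions, each the top of a long ranking over the same 10 libraries of both groups, and carry no test.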

How the data were processed

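Poly-A selected RNA was sequenced from 10 samples, 5 per group. Sample titles gave the group and replicate number. The deposited values are raw whole-number counts per gene symbol. The submitters' processing notes list HISAT2 2.2.1, HTSeq, cutadapt 1.9.1, FastQC and DESeq2, with build GRCm39; for annotation release and strand setting, nothing is given in the sources used. Genes were filtered with filterByExpr, TMM-scaled and tested by edgeR 4.0.16 (R 4.3.3), quasi-likelihood with robust estimation, with treatment as only term and p-values adjusted (Benjamini-Hochberg) over 14415 genes. Intervals used the SE implied by the F statistic. The steps were tested on simulated data. CPM are TMM-scaled, except marker sums, which use library totals. No libraries agreed within sampling noise (chi-square per degree of freedom at least 2.43 over genes averaging 50 counts or more). Exon lengths came from GENCODE M21, build GRCm38, by symbol, and promoters from RefSeq. Permutation tests used all 252 assignments (smallest p 0.00794). The rule named all members, the 2 genes of smallest p in each of 7 lists and 14 fixed partners and targets; Tlr3, Il18, myeloid and other markers are named as context. Members and lists were chosen with earlier results of these data known. Alternatives were other scalings, filters, DESeq2 1.42.0, limma-voom (limma 3.58.1), a replicate block and left-out libraries.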

Additional observations from a re-analysis of the deposited data

Results flagged for a closer look

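In groups of 5, a library was marked where its gap to the nearest other exceeded 0.71 of the group's range; of 60 groups looked at, 6 were marked, and chance marks about 1 in 20. Tlr4 stood at 63.7 CPM in BGN replicate 5, against 69.5 to 71.1 CPM in the other BGN libraries. Cxcl10 stood at 15.2 CPM in BGN replicate 2, against 3.92 to 5.998 CPM in the others, and P2ry1 at 5.59 CPM in BGN replicate 3, against 6.40 to 6.65 CPM. In BGN replicate 1, Sphk1 stood at 6.84 CPM, against 4.97 to 5.51 CPM in the others, and Tirap at 37.1 CPM, against 33.5 to 34.3 CPM. Ccl2 stood at 1.18 CPM in Control replicate 2, against 0.699 to 0.798 CPM in the other Control libraries.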

How the results depend on the processing

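Under all 19 alternatives 0 sensing genes were called, with a lowest adjusted p of 0.734 (edgeR). Unadjusted, Tlr4 alone passed 0.05, in 3 of them, where 785 to 872 of all genes tested did. Over all genes 0 were called except without the filter on low counts, where 3 were, none a sensing gene; the cause was not tested. Single log2 fold changes, none of them called, changed sign in 17 of 152 values for sensing genes and 24 of 397 for other named genes, and none gained a call. With library totals alone, Tlr2 was at -0.00075 and Cd14 at -0.00052; with limma-voom, Casp1 was at -0.0069 and Ccl2 at -0.051. Without BGN replicate 5 and Control replicate 5 together, Tlr2 was at -0.00085, P2rx4 at 0.024, Tlr5 at -0.0061, Pycard at 0.0062, Lbp at 0.041, Casp1 at -0.011, Tirap at -0.00099 and Tnf at -0.016. Without 1 library, or without these 2, the ranges were -0.010 to 0.019 for Tlr2, -0.016 to 0.066 for Cd14, -0.096 to 0.024 for P2rx4, -0.0061 to 0.075 for P2rx7, -0.0061 to 0.055 for Tlr5, -0.19 to 0.0062 for Pycard, -0.41 to 0.056 for Nlrp10, -0.066 to 0.051 for Lbp, -0.021 to 0.062 for Casp1, -0.016 to 0.11 for Tnf, -0.0079 to 0.069 for Tirap, -0.056 to 0.32 for Ccl2 and -0.63 to 0.12 for Cxcl10. Without 1 library, values that kept their sign but moved by over 1.5 times ranged from -0.20 to -0.040 for Ly96, 0.026 to 0.070 for Myd88, -0.082 to -0.017 for Ticam1, 0.32 to 0.72 for Ticam2, 0.0011 to 0.12 for Cxcl1, -0.19 to -0.063 for Irak3, -0.072 to -0.022 for Hsp90b1 and -0.079 to -0.037 for Tollip. The myeloid sum differed by 0.15 CPM between the groups and by -0.060 without Cd163 (exact permutation p = 0.833 and 0.905). With the replicate number as a block, 0 genes were called; same-numbered libraries deviated together at -0.031 to 0.27 (Pearson correlation across genes) and 1 of 5 BGN libraries correlated best with its own number, so the numbers were not taken to pair the samples. Depth limits Nlrp3, Tlr1, Tlr6, Il1b, Il6 and Ccl5, which had too few reads to test.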
